A study of Mus musculus with 4 samples.

Results

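*Met*, the gene of the hepatocyte growth factor receptor, was examined together with 9 related genes in RNA sequencing data of fetal liver LSK cells, named for their lineage-negative, Sca-1-positive and c-Kit-positive surface, a gate rich in blood stem cells. The 10 genes were found by exact match of their symbols in a table of 39186 genes, and each matched 1 row. They are *Met*, *Mst1r* and the ligand gene *Hgf*, the TAM receptors *Axl*, *Mertk* and *Tyro3*, the PDGF receptors *Pdgfra* and *Pdgfrb*, and *Igf1r* and *Insr*. The genes were chosen by family after *Met* had been singled out for its difference between *Pich*-KO and *Pich*-WT cells, so their differences between the groups are described here and carry no test. Libraries were made from 2 *Pich*-KO and 2 *Pich*-WT samples of C57BL/6 fetal liver. *Pich*-KO embryos carry a small TALEN-made deletion in an early exon of the X-linked *Pich* gene in all tissues, so the change is not limited to blood cells, whereas *Pich*-WT embryos carry no engineered allele. The study sorted fetal liver cells at E14.5 with antibodies against CD4, CD8, Gr-1, B220 and Ter119 for the lineage gate, and against c-Kit and Sca-1. The labels do not say whether the samples of a group came from separate embryos or pools.

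Receptor tyrosine kinases sit in the cell membrane, bind a secreted ligand outside the cell and phosphorylate each other's intracellular tails, which adaptors then read to switch on the RAS-MAPK and PI3K-AKT routes. MET and its relative RON, the product of *Mst1r*, answer to HGF and to macrophage-stimulating protein, and HGF-MET signaling is best known in the liver for the growth and migration of hepatoblasts and hepatocytes. TYRO3, AXL and MERTK bind GAS6 and protein S, which bridge them to phosphatidylserine on dying cells, and AXL and MERTK let macrophages and endothelial cells clear such cells and restrain inflammatory signals. PDGF receptors mark mesenchymal cells and pericytes, and the insulin and IGF-1 receptors drive growth and nutrient uptake in most cell types.

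The libraries held 14703215 to 20933919 reads on genes, and the values are reads divided by one size factor per sample, named normalized counts below. *Ercc6l*, the gene that encodes PICH, had 1142 and 1232 normalized counts in *Pich*-KO, against 772 and 661 in *Pich*-WT. Since transcripts of the deleted allele are still counted, this level does not check the labels. *Pich*-WT sample 2 stood apart from the other libraries, with 0 reads on 4 Y-linked genes and 699 reads on *Xist*, as in female cells. The other libraries had 1607 to 2848 reads on the Y-linked genes and 4 to 13 on *Xist*, as in male cells. Sex was thus not balanced between the groups, and its part in the differences was not tested. The defining LSK markers were present, with group means of 3610 and 2421 normalized counts for *Kit* and of 3282 and 981 for *Ly6a* (Sca-1) in *Pich*-KO and *Pich*-WT. Of 15 macrophage markers, none was at 0 in every library and all 15 were lower in *Pich*-KO past the threshold described below. Their summed level was 6548 and 6772 in *Pich*-KO, against 64059 and 63782 in *Pich*-WT, a 9.60-fold difference. All 10 endothelial markers were likewise lower, with sums of 5073 and 3634 against 36442 and 25528. Of 12 neutrophil markers 3 were higher, *Mpo*, *Prtn3* and *Ctsg*, with a median of 0.07 (log2) over the list. The sums of this list were 64611 and 122010 in *Pich*-KO samples 1 and 2, against 16897 and 19680 in *Pich*-WT. *S100a8*, *S100a9*, *Camp* and *Ltf* were below both *Pich*-WT samples in *Pich*-KO sample 1 and above both in sample 2. Of the other lists, 7 of 8 erythroid, 7 of 14 hepatoblast, 3 of 8 megakaryocyte and 4 of 10 LSK markers were lower. In addition, 1 LSK marker, *Ly6a*, was higher, and of 8 mast cell and basophil markers 2 were higher and 1 lower. The LSK markers called lower were *Procr*, *Hlf*, *Mecom* and *Slamf1*, with log2 fold changes of −2.88, −2.37, −2.10 and −0.90. By the same threshold 7.58% of all genes tested were higher and 9.60% lower. Among genes with a mean of at least 50 these shares were 19.5% and 22.6%, so small counts in short lists say little. In such bulk samples, fewer cells of a type and less RNA per cell cannot be told apart.

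*Met* was low in *Pich*-WT LSK cells and among the most abundant receptor kinase transcripts in *Pich*-KO cells. The gene (ENSMUSG00000009376) spans chr6:17463800-17573980 on the plus strand of GRCm38. Its normalized count was 1033 and 934 in *Pich*-KO samples 1 and 2 and 53.1 and 37 in *Pich*-WT samples 1 and 2. These values rest on 947 and 822 reads in *Pich*-KO and on 68 and 37 reads in *Pich*-WT. Both *Pich*-KO libraries lay far above both *Pich*-WT libraries, and the group means of 984 ± 69.6 and 45.1 ± 11.4 (SD, n = 2) differed 21.8-fold. On the log2(normalized count + 1) scale the difference was 4.44 with a standard error of 0.23. Leaving out each library in turn gave 4.18 to 4.69, the lowest of these without *Pich*-WT sample 2. Per kilobase of gene length, *Met* ranked 29 of 58 receptor tyrosine kinase genes in *Pich*-WT and 6 of 58 in *Pich*-KO, behind *Csf1r*, *Flt3*, *Kit*, *Ptk7* and *Axl*. Markers of hepatoblasts, a cell type known for MET, summed to 4229 and 3499 in *Pich*-KO and to 6219 and 5586 in *Pich*-WT, mostly *Afp* and *Alb*. Of these 14 markers 7 were lower and 0 higher, while *Cdh1* and *Dlk1* had log2 fold changes of 1.18 and 0.11 (adjusted p = 0.0824 and 0.783), and the part of such cells in *Met* was not tested.

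The plot of normalized counts by library shows that the groups lie far apart for *Met* relative to the spread within each group. *Mertk* is the mirror image of *Met*.

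**Figure D1:**
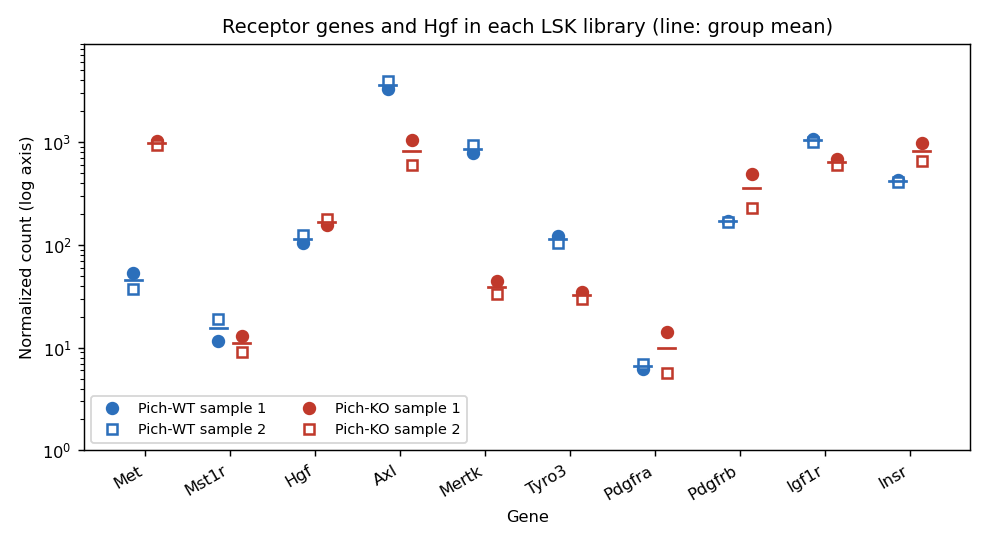
Normalized count (log axis) of each of the 10 genes in the 2 *Pich*-WT (blue) and 2 *Pich*-KO (red) LSK libraries; filled circles are sample 1, open squares sample 2, and short lines the group means. *Met* is at 934 to 1033 in *Pich*-KO and at 37 to 53.1 in *Pich*-WT, while *Mertk* is at 33.0 to 44.7 and 780 to 932.

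The 5 genes whose profile over the 4 libraries was closest to that of *Met* were *Slfn4*, *Isg15*, *Oas1g*, *Scd2* and *Usp18*. Likeness was measured as the Euclidean distance between profiles of log2(normalized count + 1) centred on their own mean, over 11793 genes with a mean of at least 50. *Slfn4* was closest, at a distance of 0.45, with 632 and 521 normalized counts in *Pich*-KO against 22.7 and 24 in *Pich*-WT. *Isg15*, the ubiquitin-like modifier made in response to interferon, was next at 0.77, with 3963 and 2626 against 183 and 220. *Oas1g*, of the family that senses double-stranded RNA, was at 0.80, *Scd2*, a fatty acid desaturase, at 0.83, and *Usp18*, which removes ISG15 from proteins, at 0.83. With 4 libraries in 2 groups, any gene with a similar difference between the groups comes out as near, so the distance mainly ranks the size of that difference.

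Because *Isg15*, *Oas1g* and *Usp18* are textbook interferon-stimulated genes, the sequence before the start of *Met* is shown beside that of *Isg15*. The bases come from the RefSeq promoter table for GRCm38.p6, are read 5′ to 3′ on the gene's strand, and leave out those that GENCODE M21 annotates as exon, which leaves 93 of 250 bases for *Met*. Capitals mark the interferon-stimulated response element core (GAAA, any 2 bases, GAAA), the STAT motif TTCNNNGAA and the GC box GGGCGG, on either strand.
Met, chr6:17463707-17463799 (plus strand): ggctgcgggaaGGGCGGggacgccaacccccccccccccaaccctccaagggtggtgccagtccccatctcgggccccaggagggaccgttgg
Isg15, chr4:156200819-156201068 (minus strand): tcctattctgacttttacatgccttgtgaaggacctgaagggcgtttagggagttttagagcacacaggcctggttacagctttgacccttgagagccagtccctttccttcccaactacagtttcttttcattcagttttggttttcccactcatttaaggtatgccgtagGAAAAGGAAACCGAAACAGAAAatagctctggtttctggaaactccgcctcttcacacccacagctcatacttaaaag
In *Isg15* the capitals mark 3 overlapping response element cores, and in *Met* a GC box. Searched over the whole 250 bases before the RefSeq start, *Met* held 3 GC boxes and no match to the other motifs, and its GC content was 74%. This search includes the bases annotated as exon, so only 93 of them lie before the annotated *Met* gene, against all 250 for *Isg15*. Of all 32851 promoters in the table, 2.98% held the response element core, 7.02% the STAT motif and 32.7% the GC box. Of the 8 genes of this set with an entry, none held the response element core or the STAT motif and 6 held the GC box; *Insr* and *Pdgfrb* had no entry. Of the 5 genes closest to *Met*, 3 had an entry, and the response element core was found in *Isg15* and *Oas1g*. A match is a run of letters and not a measured binding site.

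The partners of *Met* differed less between the groups. *Hgf* (ENSMUSG00000028864, chr5:16553495-16620152), the ligand, had 157 and 180 normalized counts in *Pich*-KO, against 104 and 125 in *Pich*-WT. The groups did not overlap, and the means of 168 ± 15.9 and 114 ± 14.9 (SD, n = 2) differed 1.47-fold. *Met* and *Hgf* were thus both detected in these libraries, at 5.87 and 15.9 normalized counts per kilobase in *Pich*-WT and at 128 and 23.4 in *Pich*-KO. The ratio of *Met* to *Hgf* per kilobase was 0.479 and 0.277 in the *Pich*-WT samples and 6.15 and 4.87 in the *Pich*-KO samples. *Mst1r* (ENSMUSG00000032584, chr9:107906873-107920383) was scarce everywhere. It had 13.1 and 9.09 normalized counts in *Pich*-KO, against 11.7 and 19 in *Pich*-WT, with overlapping groups. Its log2 fold change of −0.42 had a standard error of 0.52, so at 8 to 19 reads a library no difference was detectable.

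The TAM receptors were all lower in *Pich*-KO, and *Mertk* most. *Mertk* (ENSMUSG00000014361, chr2:128698956-128802894) had 44.7 and 33.0 normalized counts in *Pich*-KO samples 1 and 2 and 780 and 932 in *Pich*-WT samples 1 and 2. The group means of 38.8 ± 8.31 and 856 ± 108 (SD, n = 2) differed 22.0-fold, a log2 fold change of −4.44 (standard error 0.24). *Mertk* was thus lower by about the factor by which *Met* was higher. *Axl* (ENSMUSG00000002602, chr7:25757273-25788705) had the highest counts of the set in *Pich*-WT. It had 1053 and 600 normalized counts in *Pich*-KO, against 3252 and 3953 in *Pich*-WT. The groups did not overlap, at means of 826 ± 320 and 3602 ± 496 (SD, n = 2), 4.36-fold apart. *Tyro3* (ENSMUSG00000027298, chr2:119797733-119818104), whose product is best known from the nervous system, had 34.9 and 29.6 normalized counts in *Pich*-KO, against 123 and 104 in *Pich*-WT, 3.52-fold apart.

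The TAM genes did not differ by the same factor. The ratio of *Axl* to *Mertk* per kilobase was 3.59 and 3.65 in the *Pich*-WT samples and 20.3 and 15.7 in the *Pich*-KO samples. *Axl* had the highest *Pich*-KO mean of the 9 receptors, at 164 normalized counts per kilobase, although *Met* was above it in *Pich*-KO sample 2, while *Mertk* was at 8.96 per kilobase. The log2 fold changes without 1 library ran from −4.65 to −4.22 for *Mertk*, from −2.58 to −1.77 for *Axl* and from −1.90 to −1.66 for *Tyro3*. The macrophage and endothelial markers described above were lower in the same libraries, by 9.60-fold and 7.12-fold in their sums. Their *Pich*-KO sums were mostly *Lyz2* and *Egfl7*, with *Pich*-KO means of 4668 and 2381 normalized counts. The median log2 fold changes of these lists were −4.84 and −4.28. The part of such cells in the TAM values was not tested. *Adgre1* (F4/80), a defining macrophage marker, had 273 and 205 normalized counts in *Pich*-KO against 6617 and 6927 in *Pich*-WT. The sequences before *Mertk* and *Axl* are shown because these genes had the largest differences toward lower values in the set.
Mertk, chr2:128698665-128698914 (plus strand): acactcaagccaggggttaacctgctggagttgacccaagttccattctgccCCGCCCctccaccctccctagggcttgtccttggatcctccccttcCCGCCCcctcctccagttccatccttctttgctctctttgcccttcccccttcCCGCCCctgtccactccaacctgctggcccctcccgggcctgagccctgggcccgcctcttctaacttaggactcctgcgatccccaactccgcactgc
Axl, chr7:25788734-25788983 (minus strand): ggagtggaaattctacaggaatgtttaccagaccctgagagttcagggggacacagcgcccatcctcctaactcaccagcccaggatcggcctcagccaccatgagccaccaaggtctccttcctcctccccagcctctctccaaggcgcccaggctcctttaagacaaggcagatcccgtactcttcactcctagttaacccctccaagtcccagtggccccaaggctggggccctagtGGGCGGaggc
*Mertk* held 3 GC boxes, all read on the opposite strand, so that they appear as its complement in capitals, and *Axl* held 1, 10 bases before the start. Their GC contents were 63.6% and 60%, below the 74% of *Met*.

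The plot of markers beside receptors sets the TAM genes next to the marker sums of the same libraries.

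**Figure D2:**
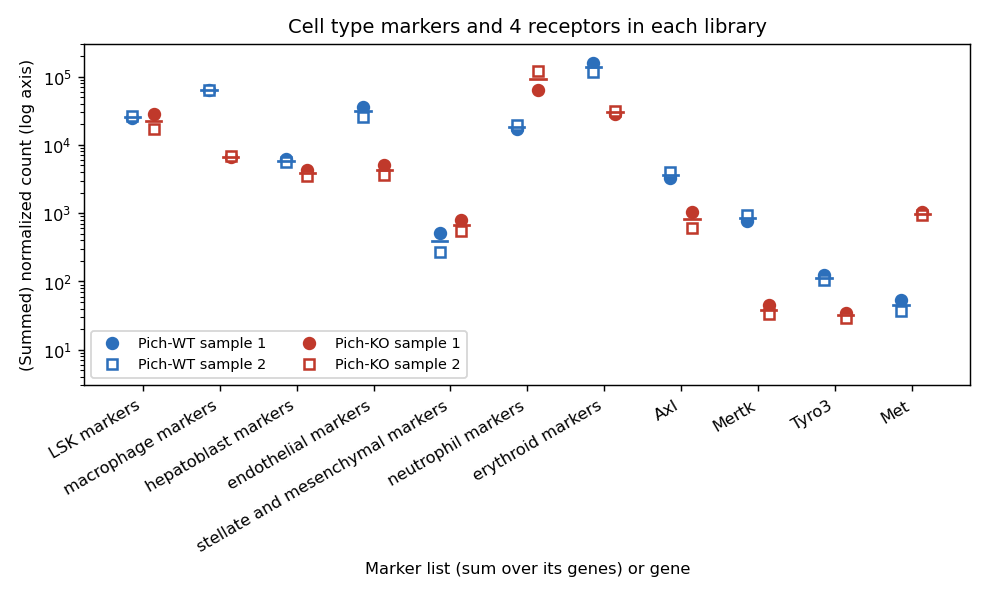
Normalized count, summed over the genes of each marker list or given for a single gene (log axis), in each library; symbols as in the plot by library. Macrophage, endothelial and erythroid sums and *Axl*, *Mertk* and *Tyro3* are lower in both *Pich*-KO libraries, *Met* and the neutrophil sum, which is mostly *Mpo*, are higher, and the LSK sums of the groups overlap.

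The insulin and IGF-1 receptor genes, close relatives, differed in opposite directions. *Insr* (ENSMUSG00000005534, chromosome 8, 3122061 to 3279617) had 976 and 654 normalized counts in *Pich*-KO, against 424 and 410 in *Pich*-WT. Its group means of 815 ± 228 and 417 ± 10.2 (SD, n = 2) differed 1.95-fold. *Igf1r* (ENSMUSG00000005533, chr7:67952827-68233668) had 688 and 600 in *Pich*-KO, against 1077 and 1010 in *Pich*-WT, 1.62-fold lower in *Pich*-KO. Neither gene overlapped between the groups. Per kilobase, *Insr* was at 0.481 and 0.496 of *Igf1r* in the *Pich*-WT samples and at 1.73 and 1.33 times it in the *Pich*-KO samples, so that the order of the pair switched. The sum of both overlapped between the groups, at 112 and 83.3 normalized counts per kilobase in *Pich*-KO, against 95.0 and 90.0 in *Pich*-WT.

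Of the PDGF receptors, *Pdgfrb* was detected and *Pdgfra* hardly. *Pdgfrb* (ENSMUSG00000024620) had 489 and 228 normalized counts in *Pich*-KO, against 172 and 167 in *Pich*-WT. The groups did not overlap, but the *Pich*-KO libraries differed 2.14-fold from each other, as much as the group means of 359 ± 184 and 169 ± 3.49 (SD, n = 2), which were 2.12-fold apart. Without *Pich*-KO sample 1 the log2 fold change of *Pdgfrb* was 0.43 in place of 0.98. *Pdgfra* (ENSMUSG00000029231) had 13 and 5 reads in the *Pich*-KO libraries, 8 and 7 reads in the *Pich*-WT libraries, and overlapping groups. Its log2 fold change was 0.40 with a standard error of 0.63, and −0.19 without *Pich*-KO sample 1. Stellate and mesenchymal markers were scarce, with summed normalized counts of 789 and 550 in *Pich*-KO, against 510 and 267 in *Pich*-WT over 11 genes. Their median log2 fold change was 0.07, and 1 of them passed, the collagen gene *Col1a1*, at 219 and 210 against 129 and 58. The collagen genes *Col3a1* and *Col1a2* were likewise higher in both *Pich*-KO than in both *Pich*-WT libraries, but did not pass. *Dcn*, *Lum* and *Reln* had positive log2 fold changes with overlapping groups. The stellate and pericyte genes *Des*, *Lrat*, *Acta2*, *Rgs5* and *Cspg4* had negative log2 fold changes, from −1.71 to −0.28, and did not pass. The part of such cells in *Pdgfrb* was not tested.

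In all, *Met*, *Hgf*, *Insr* and *Pdgfrb* were higher and *Axl*, *Mertk*, *Tyro3* and *Igf1r* lower in both *Pich*-KO than in both *Pich*-WT libraries. These are 8 of the 10 genes, beside 56.1% of the 32428 genes tested and 79.0% of those with a mean of at least 50. All 8 have such a mean, and since the same contrast led to the choice of genes, the count supports nothing. *Pich*-KO sample 1 was above sample 2 in 9 of the 10 genes, all but *Hgf*. The marker sums of these samples differed as well, at 28288 and 17044 for LSK and 64611 and 122010 for neutrophil markers. Their macrophage sums were close, at 6548 and 6772. The part of such cell make-up in the 10 genes was not tested. The log2 difference between the *Pich*-KO samples was 0.81 for *Axl*, 1.09 for *Pdgfrb* and 0.58 for *Insr*, where the median absolute difference over genes with a mean of at least 50 was 0.194. That of *Met*, 0.14, was below this median.

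**Figure D3:**
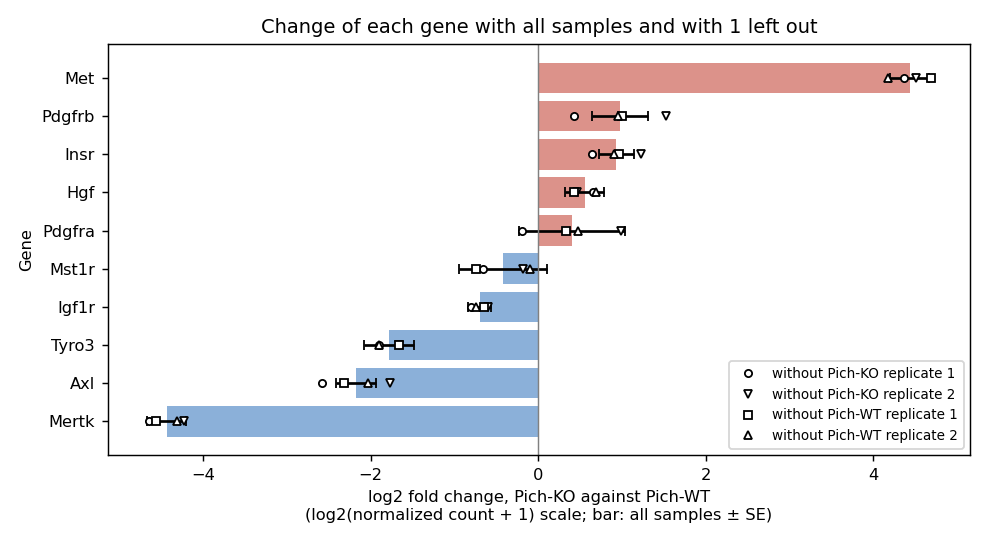
log2 fold change of each gene, *Pich*-KO against *Pich*-WT, on the log2(normalized count + 1) scale; bars are the values over all libraries with standard errors, and open symbols the values with 1 library left out. *Met* stays between 4.18 and 4.69 and *Mertk* between −4.65 and −4.22, while *Pdgfra* crosses 0 without *Pich*-KO sample 1.

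Seen together, the receptor genes made up a smaller and differently composed pool in *Pich*-KO. Summed over the 9 receptors, normalized counts per kilobase were 565 and 381 in the *Pich*-KO libraries, below the 982 and 1147 of the *Pich*-WT libraries. *Axl* held 65.8% and 68.5% of this sum in the *Pich*-WT samples and 37.0% and 31.3% in the *Pich*-KO samples. *Mertk* held 18.3% and 18.7% in *Pich*-WT and 1.83% and 1.997% in *Pich*-KO. *Met* held 0.705% and 0.420% in *Pich*-WT and 23.8% and 31.96% in *Pich*-KO.

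**Figure D4:**
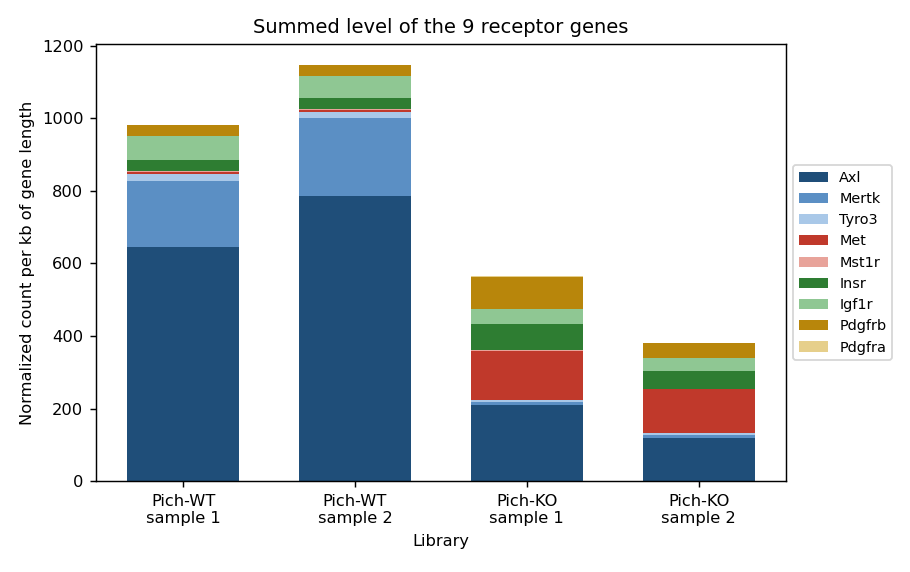
Normalized count per kilobase of gene length of the 9 receptor genes, stacked for each library. *Axl* (dark blue) fills 65.8% and 68.5% of the *Pich*-WT columns, and *Met* (red) is a thin line there but 23.8% and 31.96% of the *Pich*-KO columns.

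The other genes of these pathways were tested in lists that hold none of the 10 genes. These lists were chosen with earlier results of these data known, so their counts are not an independent test. Groups were compared with limma over 32428 genes, with Benjamini-Hochberg adjustment and a threshold of 0.05. By this test *Pich*-KO was higher in 7.58% of all genes and lower in 9.60%, and among genes with a mean of at least 50 the shares were 19.5% and 22.6%. All genes of the 4 lists were matched and tested. Permuting 2 samples against 2 exactly gives no p below 0.333, and a call is possible only because limma borrows variance from other genes. Without its variance trend, or with any 1 library left out, no gene of any list passed.

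Of 49 other receptor tyrosine kinases, 14 were lower and 0 higher, at a median log2 fold change of −0.43, where the median of all genes tested was 0.02. At an unadjusted p under 0.05, 3 were higher. Of the 22 with a mean of at least 50, 13 were lower. The strongest falls were in receptors of blood and lymph vessels. *Ephb4*, the ephrin receptor of veins, fell from 1302 ± 319 to 47.7 ± 12.8 normalized counts (SD, n = 2; log2 fold change −4.75, adjusted p = 4.3e-05). *Flt4* and *Kdr*, the receptors for VEGF-C and VEGF-A, fell, with log2 fold changes of −4.09 and −4.02 (adjusted p = 0.000679 and 0.000329). *Tek*, the angiopoietin receptor, had a log2 fold change of −3.48 (adjusted p = 0.0011). The endothelial marker sum fell with them, as given above, and its part was not tested. The stem cell receptors *Kit* and *Flt3* did not pass, at log2 fold changes of 0.54 (adjusted p = 0.114) and −0.53 (adjusted p = 0.072), although *Kit* passed as higher with DESeq2 (adjusted p = 0.0178) and with a replicate block (adjusted p = 0.00118). No other receptor kinase was called higher in these fits, nor any by edgeR. The largest log2 fold changes among them were in scarce genes, led by *Epha8* with 1.79 (adjusted p = 0.235).

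Of 29 genes for ligands of these receptors and for the processing of ligands, 14 were lower and 0 higher, at a median of −1.04. Of the 15 with a mean of at least 50, 10 were lower. None was higher at an unadjusted p under 0.05 or by edgeR or DESeq2. *Igf1*, the ligand of IGF1R, had 65.4 and 20.46 normalized counts in *Pich*-KO against 1205 and 1396 in *Pich*-WT (log2 fold change −5.10, adjusted p = 0.000267). *Gas6*, the TAM ligand, had 62.2 and 19.3 against 1291 and 950 (log2 fold change −4.95, adjusted p = 0.000355). *Pros1*, which encodes protein S, the other TAM ligand, fell 2.81-fold (adjusted p = 0.00364). The TAM genes and both of their ligands were thus lower in the same libraries. *Igf2*, the fetal growth factor, fell from 112 ± 58.7 to 16.7 ± 2.66 (SD, n = 2; adjusted p = 0.0049), and *Igfbp7*, a secreted IGF-binding protein, fell 21.2-fold (adjusted p = 9.5e-05). All 4 PDGF genes fell, with log2 fold changes from −2.18 for *Pdgfa* to −1.96 for *Pdgfc*, and *Pdgfb*, the ligand of PDGFRB, fell 4.14-fold (adjusted p = 0.00683). *Mst1*, the ligand gene of RON, had 29.4 and 44.3 against 27.4 and 45 (adjusted p = 0.967), and *Ins1* and *Ins2* had at most 5 normalized counts in any library.

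Downstream adaptors and kinases went both ways. Of 42 genes, 5 were higher and 9 lower, at a median of −0.05. Without a filter on the mean, 4 were lower. Of the 41 with a mean of at least 50, 5 were higher and 9 lower, beside 19.5% and 22.6% of all such genes. Neither call was thus more common here than among all such genes. *Ptpn11*, the SHP2 phosphatase needed for RAS activation by receptors, rose from 1007 ± 123 to 2072 ± 152 (SD, n = 2; log2 fold change 1.04, adjusted p = 0.00133). *Sos1*, the RAS exchange factor, *Mtor*, the growth-control kinase, and *Map2k1*, the MEK1 kinase, rose by log2 fold changes of 1.11, 1.14 and 0.71 (adjusted p = 0.0133, 0.00312 and 0.00261). *Gab1*, the docking protein through which MET recruits its effectors, fell from 675 ± 52.3 to 196 ± 53.3 (SD, n = 2; log2 fold change −1.81, adjusted p = 0.00107). *Hras*, *Rac1* and *Irs2*, the docking protein of the insulin receptor, fell, with log2 fold changes of −2.37, −2.01 and −1.58 (adjusted p = 0.00274, 0.00922 and 0.0282). *Grb2*, the adaptor that links receptors to SOS1, was also lower, at 4475 and 3739 against 7031 and 6764 (adjusted p = 0.00203). *Stat3* and *Nras* did not pass, with log2 fold changes of −0.04 and −0.03 (adjusted p = 0.842 and 0.878).

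Feedback inhibitors and genes induced by receptor signaling also went both ways. Of 39 genes, 16 were lower and 6 higher, at a median of −0.65. Of the 34 with a mean of at least 50, 15 were lower and 6 higher, beside 22.6% and 19.5% of all such genes. *Fosb*, an AP-1 gene induced within minutes of receptor activation, rose most, from 391 and 559 to 4759 and 4656 normalized counts (log2 fold change 3.33, adjusted p = 3.3e-05). *Myc* rose from 4040 ± 263 to 9113 ± 1128 (SD, n = 2; adjusted p = 0.000294). *Inpp5d*, the lipid phosphatase SHIP1, and *Cbl*, the ubiquitin ligase that sends MET and other receptors to degradation, rose by log2 fold changes of 0.71 and 0.59 (adjusted p = 0.0043 and 0.016). *Egr2* and *Socs3* fell, with log2 fold changes of −1.75 and −1.58 (adjusted p = 0.00192 and 0.00826). *Inppl1* (SHIP2) and *Ptprb*, a phosphatase of vascular endothelium, fell as well, with −1.84 and −3.20 (adjusted p = 0.00116 and 0.000168). The AP-1 genes thus did not move alike, since *Jun* rose (adjusted p = 0.0136), *Junb* fell (adjusted p = 0.000852) and *Fos* did not pass (adjusted p = 0.307). *Dusp6*, a phosphatase that shuts off ERK, fell from 3913 and 3571 to 2697 and 1746 (adjusted p = 0.0236).

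**Figure D5:**
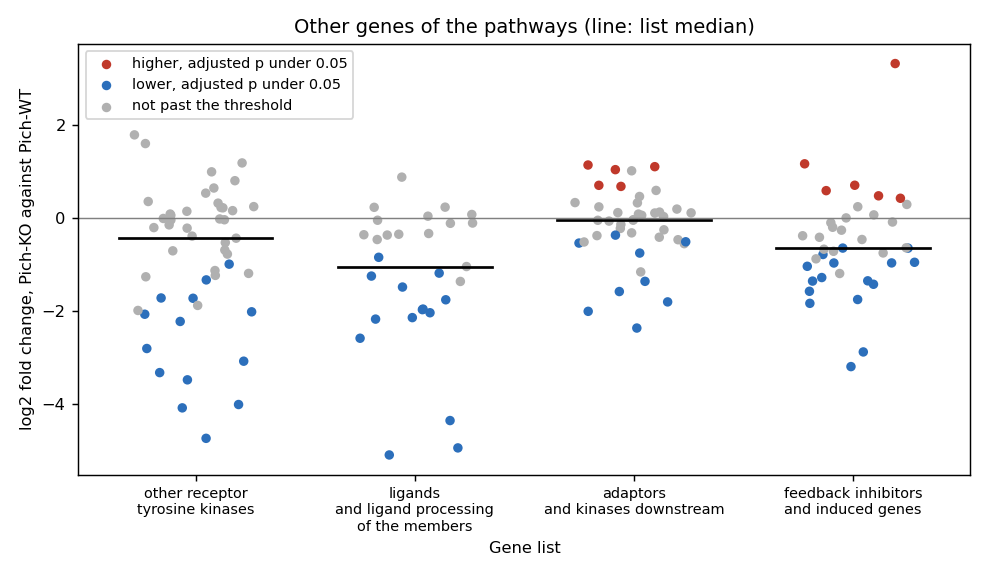
log2 fold change of each gene of the 4 lists, *Pich*-KO against *Pich*-WT; red and blue points passed an adjusted p of 0.05 as higher or lower (limma), grey points did not, and black lines are list medians. No receptor kinase and no ligand gene is red, while 5 adaptor or kinase genes and 6 feedback or induced genes are.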

How the data were processed

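RNA of sorted fetal liver LSK cells (2 *Pich*-KO, 2 *Pich*-WT) was analysed from one table. Its signal values are reads per Ensembl gene that the authors scaled with a size factor for each sample. The authors' deposited log2 fold changes and p-values were not used. Whole reads were recovered for 100% of values in each sample, within 0.01 of a whole number. The submitters' processing notes list Bowtie 0.12.2 and the builds mm8 and mm9. Yet 97.8% of the 39131 genes shared with GENCODE M21 have identical coordinates there, so positions are on GRCm38. Counter and annotation are not given in the sources used here. Overlapping or antisense genes could share reads.

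The main test was limma on log2(normalized count + 1), keeping genes whose mean was 1 or more, with a variance trend and Benjamini-Hochberg adjustment. Fold changes on this scale understate the change of low genes. The 10 genes and the lists were chosen with earlier results of these data known. Named genes are the 10 genes, *Ercc6l*, markers a sentence needs, ligand genes, the genes closest to *Met*, the genes within 500000 bases of *Met*, and up to 4 genes at each end of each list past the threshold with a mean of at least 50. *Epha8*, *Kit*, *Flt3*, *Grb2*, *Stat3*, *Nras*, *Fos*, *Jun*, *Junb* and *Dusp6* were named after their values were seen. Replicates differed beyond sampling noise (chi-square per degree of freedom 14.7 and 8.18). Deviations of samples with equal numbers had a correlation of 0.0117 over 11794 genes. This gave no sign that numbers pair samples, but with 2 samples per group it cannot exclude pairing. The procedure was also run on simulated counts. These used the same dispersion for every gene, a simpler setting than these libraries, so that run does not vouch for the calls here. Alternatives were a pseudocount of 0.1, no filter or a mean of at least 10, a replicate block, edgeR with TMM and DESeq2 on the recovered reads, no variance trend, and leaving out each sample, where the lone sample of a group is assumed to vary like the others. Software was limma 3.58.1, DESeq2 1.42.0 and edgeR 4.0.16 under R 4.3.3. The limma p-values rest on the spread between these samples, which may be technical, and on variance borrowed from other genes. Counts carry counting error, and depth limits what low genes can show.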

Additional observations from a re-analysis of the deposited data

How the results depend on the processing

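When 1 library was left out, the log2 fold change of *Pdgfra* ran from −0.19 to 0.99, that of *Pdgfrb* from 0.43 to 1.52, that of *Insr* from 0.65 to 1.22, that of *Axl* from −2.58 to −1.77 and that of *Met* from 4.18 to 4.69. Of the 10 genes, *Pdgfrb*, *Insr*, *Axl* and *Met* moved by more than their standard error. Without a variance trend, 0 genes were called higher or lower over all genes and in each list. The same counts were 0 to 0 with any 1 library left out, where 1 residual degree of freedom remains, while 2762 to 3948 of all genes were higher and 2877 to 4651 lower at an unadjusted p under 0.05 (3343 and 4034 without the trend). Without a filter on the mean, 4 adaptors and kinases were lower in place of 9; the cause was not tested. DESeq2 and the replicate block each called 1 other receptor kinase higher, *Kit*. The replicate block moved no other count by more than 1.5 times, nor did the remaining alternatives. Genes with fewer than about 20 reads a library, *Mst1r* and *Pdgfra* among them, are limited by depth.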

Other observations

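Within 500000 bases on either side of *Met* lie 22 other genes of the table. Of the 21 tested, 1 was higher and 2 were lower in *Pich*-KO, beside 7.58% and 9.60% of all genes tested. These counts do not set the region apart. *Capza2*, an actin-capping subunit that starts 62254 bases after *Met* ends, averaged 14247 ± 2596 in *Pich*-KO and 10908 ± 606 normalized counts in *Pich*-WT (SD, n = 2; log2 fold change 0.37, adjusted p = 0.0719, limma). *Cav1* and *Cav2*, the caveolin genes that lie 122348 and 174685 bases before *Met*, were lower in *Pich*-KO, with log2 fold changes of −3.46 and −1.21 (adjusted p = 0.000262 and 0.0347, limma). Caveolae are abundant in endothelial cells, whose markers were lower in the same libraries; their part was not tested. *Tes* and *St7* did not pass (adjusted p = 0.361 and 0.611, limma). The gene called higher was *Gm43533*, an unverified transcript within the span of *St7*, with normalized counts of 12.9 ± 4.31 and 1.67 ± 0.95 (adjusted p = 0.0456, limma).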
